A study of Mus musculus with 8 samples.

Results

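The ETS transcription factor loci comprised 10 of the 21951 protein-coding gene loci examined by FAIRE-seq (sequencing after formaldehyde-assisted isolation of regulatory elements), an assay that enriches DNA not held by crosslinked protein. The genes were *Etv4*, *Etv5*, *Ets1*, *Ets2*, *Etv6*, *Erf*, *Elf3*, *Elf5*, *Ehf* and *Spdef*, and a locus was the annotated span of the gene with 20 kb on each side. Peaks of all libraries that overlapped a locus were merged into regions, which gave 40 regions at the ETS loci among 37230 in the whole data set. EpH4 cells are a mouse mammary gland epithelial line, and EpRas cells are 1 derivative of EpH4 cells transformed with an active H-Ras, grown in less serum than EpH4 cells. Each line had been left untreated or cultured with 1 ng/ml TGF-β3 (labelled TGFB, here TGF-β) for 8 days, with 2 replicate libraries in each of the 4 groups. The effects of Ras, serum and derivation of the line cannot be told apart.

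ETS factors bind DNA around a GGAA core, and many of them are endpoints of Ras signalling, since ERK kinases phosphorylate them. The family holds activators, repressors and epithelial factors. Etv4 and Etv5 of the PEA3 group drive branching of mammary and other epithelia and invasion of carcinoma cells, Ets1 and Ets2 are activated by ERK, Etv6 and Erf repress transcription, and Elf3, Elf5, Ehf and Spdef are expressed in epithelia, where Elf5 directs the secretory lineage of the mammary gland. Accessible chromatin at these genes was compared between the lines and between treatments.

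The deposited data were lists of peaks with a score whose meaning was not stated, and no read counts. Depth was therefore unknown, and a closed site was not distinguishable from an open one that missed the authors' threshold. Scores were converted to percentiles of rank within each library, with 100 for the highest score and 0 for no peak. The lists held 10821 to 17927 peaks in EpH4 cells and 13784 to 27337 in EpRas cells, and the longest was replicate 1 of TGF-β-treated EpRas cells. Both the number of peaks at a locus and a percentile can depend on the length of the list. As a check of cell identity, 8 epithelial genes were examined for promoter peaks, and 3 to 5 of them had one in the EpH4 libraries and 0 to 4 in the EpRas libraries. *Epcam* had none in any library, and *Cdh1*, which encodes E-cadherin, had one in all 4 EpH4 and 0 EpRas libraries. None of 8 marker genes of blood, endothelium, muscle, neurons and liver had a promoter peak in any library.

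The sequences of 7 regions are shown here because calls at these regions differed between lines, treatments or groups in all replicates or nearly so. Each is the 300 bases around the midpoint of the region on the forward strand of GRCm38 (mm10), in lower case. Capitals mark matches on either strand to 3 fixed sets of letters. The AP1 set was TGAGTCA together with its reverse complement, which reads TGACTCA. For RUNX factors the letters searched were TGTGGTT, and for ETS factors the core CGGAA was searched with adenine or cytosine before it and adenine or guanine after it. A match is a description of the letters and does not show binding. The ETS letters are narrower than the GGAA core, so a window without a match can still hold that core. No match overlapped another in these 7 windows.

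*Etv5* region 1, intron of *Etv5*, chr16:22389174-22389473, called in EpRas cells. It holds 1 AP1 match.
Etv5 region 1: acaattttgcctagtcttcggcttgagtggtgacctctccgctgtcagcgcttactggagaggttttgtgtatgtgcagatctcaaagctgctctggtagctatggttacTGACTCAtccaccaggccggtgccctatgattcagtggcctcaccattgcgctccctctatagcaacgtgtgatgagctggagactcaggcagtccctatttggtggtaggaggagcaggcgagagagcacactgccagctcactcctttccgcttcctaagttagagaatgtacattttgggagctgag
*Ets2* region 1, upstream of *Ets2*, chr16:95682348-95682647, called in EpH4 cells. It holds 2 AP1 matches.
Ets2 region 1: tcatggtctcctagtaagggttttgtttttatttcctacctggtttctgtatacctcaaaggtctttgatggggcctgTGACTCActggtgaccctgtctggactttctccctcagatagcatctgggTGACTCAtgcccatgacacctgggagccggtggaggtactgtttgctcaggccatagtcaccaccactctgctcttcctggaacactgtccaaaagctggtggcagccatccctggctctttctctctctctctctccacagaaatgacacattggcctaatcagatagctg
*Ets2* region 3, intron of *Ets2*, chr16:95716423-95716722, called in EpH4 cells and 1 EpRas library. It holds 1 AP1 match.
Ets2 region 3: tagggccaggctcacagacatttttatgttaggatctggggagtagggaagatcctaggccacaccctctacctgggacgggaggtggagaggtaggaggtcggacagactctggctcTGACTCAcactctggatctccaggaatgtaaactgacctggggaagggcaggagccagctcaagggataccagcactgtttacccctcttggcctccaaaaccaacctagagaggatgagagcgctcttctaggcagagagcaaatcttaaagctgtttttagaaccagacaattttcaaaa
*Ets2* region 4, downstream of *Ets2*, chr16:95728916-95729215, called in EpH4 cells and 1 EpRas library. It holds none of the letters searched.
Ets2 region 4: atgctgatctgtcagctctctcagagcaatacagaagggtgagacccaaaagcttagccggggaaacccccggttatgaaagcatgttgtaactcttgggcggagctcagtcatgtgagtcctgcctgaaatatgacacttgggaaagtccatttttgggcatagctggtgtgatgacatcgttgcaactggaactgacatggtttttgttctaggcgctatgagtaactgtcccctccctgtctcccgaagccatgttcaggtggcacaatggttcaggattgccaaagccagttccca
*Etv6* region 4, intron of *Etv6*, chr6:134090139-134090438, called after TGF-β in both lines. It holds 2 RUNX matches, the latter on the reverse strand.
Etv6 region 4: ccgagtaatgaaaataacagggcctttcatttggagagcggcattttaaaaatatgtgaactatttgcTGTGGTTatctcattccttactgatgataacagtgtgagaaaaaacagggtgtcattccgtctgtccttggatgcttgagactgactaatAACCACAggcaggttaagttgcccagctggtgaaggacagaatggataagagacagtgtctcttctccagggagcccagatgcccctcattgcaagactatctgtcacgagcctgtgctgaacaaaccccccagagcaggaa
*Etv6* region 5, intron of *Etv6*, chr6:134186332-134186631, called after TGF-β in both lines. It holds none of the letters searched.
Etv6 region 5: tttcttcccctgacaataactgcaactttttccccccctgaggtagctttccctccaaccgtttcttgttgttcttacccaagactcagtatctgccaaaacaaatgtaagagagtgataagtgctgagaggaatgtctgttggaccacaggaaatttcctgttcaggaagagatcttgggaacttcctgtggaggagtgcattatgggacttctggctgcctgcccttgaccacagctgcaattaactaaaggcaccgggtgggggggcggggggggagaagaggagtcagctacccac
*Etv4* region 2, downstream of *Etv4*, chr11:101768716-101769015, called in TGF-β-treated EpRas cells alone. It holds 1 ETS match and 2 AP1 matches.
Etv4 region 2: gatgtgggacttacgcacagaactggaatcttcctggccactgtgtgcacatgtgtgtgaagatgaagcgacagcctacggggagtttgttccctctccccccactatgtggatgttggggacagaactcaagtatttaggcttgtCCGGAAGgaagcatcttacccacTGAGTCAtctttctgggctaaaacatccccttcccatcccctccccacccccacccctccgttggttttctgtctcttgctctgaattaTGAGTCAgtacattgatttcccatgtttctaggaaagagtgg

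Together the ETS loci held 15 and 14 peaks in EpH4 cells without TGF-β, 22 and 15 in EpH4 cells with it, 15 and 11 in EpRas cells without TGF-β, and 27 and 21 in EpRas cells with it (replicates 1 and 2). As a share of the list these were 0.107% to 0.139% in EpH4 cells and 0.0798% to 0.125% in EpRas cells, so the lines overlapped. *Ets1* reached the highest number, 7 peaks in TGF-β-treated EpRas replicate 1, and *Ehf* and *Spdef* had no peak in any library. Over the genome, 15756 of the 21951 protein-coding loci had a peak in any library.

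**Figure D1:**
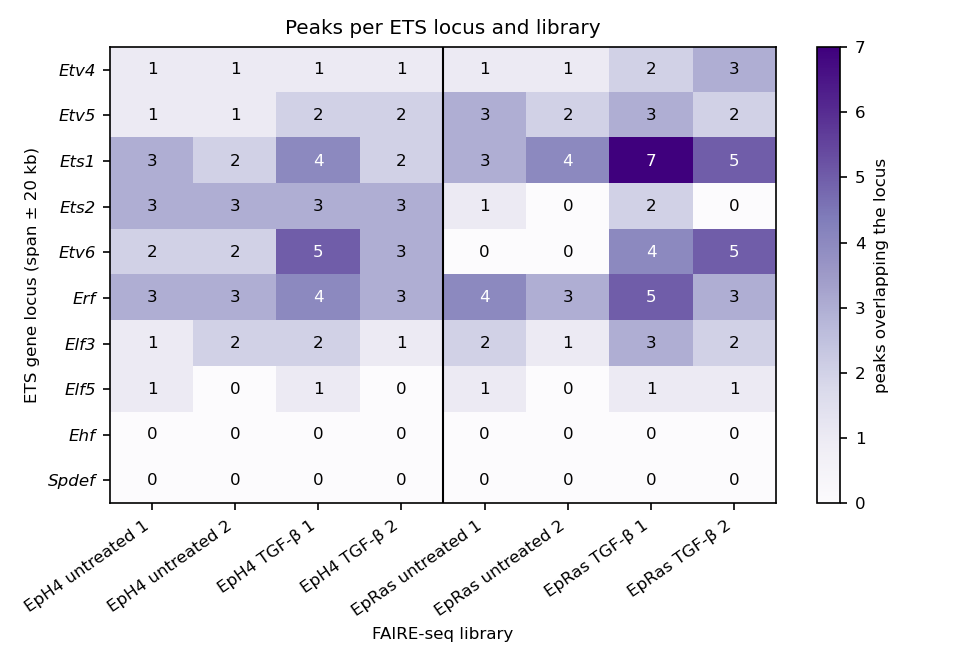
Number of FAIRE peaks overlapping each ETS gene locus (rows, gene span with 20 kb on each side) in each library (columns, EpH4 left and EpRas right of the black line). *Ets2* shows 3 peaks in each EpH4 library and 0 to 2 in the EpRas libraries, and *Etv6* shows 3 to 5 peaks in TGF-β-treated libraries and 0 to 2 in untreated ones.

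Numbers of peaks were compared by an exact permutation test of 4 against 4 libraries, two-sided, whose smallest possible p-value is 0.0286, with Benjamini-Hochberg adjustment over the 15756 loci that had a peak in any library. No locus in the genome passed adjustment. The smallest adjusted p-value of this exact permutation test was 0.593 for the lines and 1.00 for TGF-β, while 759 and 69 loci had an unadjusted p-value under 0.05. Loci were therefore also described by whether the 4 libraries of the groups overlapped. Counts in all EpRas libraries exceeded those in all EpH4 libraries at 4.27% of the loci, and the reverse held at 0.552%. Counts in all TGF-β-treated libraries exceeded those in all untreated ones at 0.394%, and the reverse held at 0.0444%. Of the 10 ETS loci, 0 were without overlap and higher in EpRas cells, 1 (*Ets2*) was higher in EpH4 cells, 1 (*Etv6*) was higher with TGF-β and 0 were higher without it. The median difference over the ETS loci, with the 2 that had no peak included, was 0.375 peaks between EpRas and EpH4 cells and 0.500 between TGF-β-treated and untreated cells, against 0.250 and 0.250 over all loci with a peak. None of the 10 loci had a lower mean with TGF-β than without it, 8 had a higher mean and 2 were at 0 throughout. Over all 15756 loci with a peak, 9088 had a higher mean with TGF-β, 3367 a lower one and 3301 an equal one. In lists of equal length, the mean with TGF-β was lower at *Ets2* (-0.250) and *Erf* (-0.500) and equal at *Elf5*. It was higher at the other ETS loci that had a peak.

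Single regions were read against the same background. Among all 37230 regions, 1.98% were called in all 4 EpRas and 0 EpH4 libraries, 0.752% in all 4 EpH4 and 0 EpRas libraries, 0.320% in all TGF-β-treated and 0 untreated libraries, and 0.0188% in all untreated and 0 TGF-β-treated libraries. The counts at the ETS loci were 1, 1, 2 and 0 of 40 regions. By percentile, the groups did not overlap at 4.72% of all regions with EpRas higher, 1.49% with EpH4 higher, 1.21% with TGF-β higher and 0.145% with untreated higher, and the counts at the ETS loci were 1, 3, 3 and 0. No region passed adjustment, and the smallest adjusted p-value of the exact permutation test on percentiles was 0.460 for the lines and 1.00 for TGF-β. Regions called in both libraries of 1 group and in no other made up 0.424% of all regions for untreated EpH4 cells, 0.860% for TGF-β-treated EpH4 cells, 0.451% for untreated EpRas cells and 4.21% for TGF-β-treated EpRas cells, and the ETS loci held 0, 2, 0 and 2 of them. In lists cut to the 10821 highest-scored peaks of each library, regions called in all EpRas and 0 EpH4 libraries made up 1.12% and the reverse 1.55%, so the larger share changed sides.

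Of the 40 regions, 9 lay within 2 kb of an annotated start site of the ETS gene itself (own promoter), 8 within 2 kb of a start site of another gene, 1 in an exon, 14 in introns, 4 in the upstream flank and 4 in the downstream flank. Promoters of any gene thus took 42.5% of the ETS-locus regions (Wilson 95% interval 28.5 to 57.8, which covers counting error only), against 31.7% of all regions. Calls in all 8 libraries were made at 5 of the 40 regions (12.5%, against 11.4% of all regions), and all 5 lay at promoters. In lists of equal length 4 of these regions were still called in all 8 libraries, and among the higher-scored peaks alone 0 were. Over the whole data set, 2117 of the 4259 regions called in all 8 libraries lay at promoters. None of the 14 intronic regions at ETS loci was called in every library, and the share for introns over the data set was not computed. Own promoters were called in all 8 libraries at 3 of the 10 genes (30.0%, against 10.6% of 21924 protein-coding genes) and in at least 1 library at 6 of 10 (60.0%, against 42.5%).

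**Figure D2:**
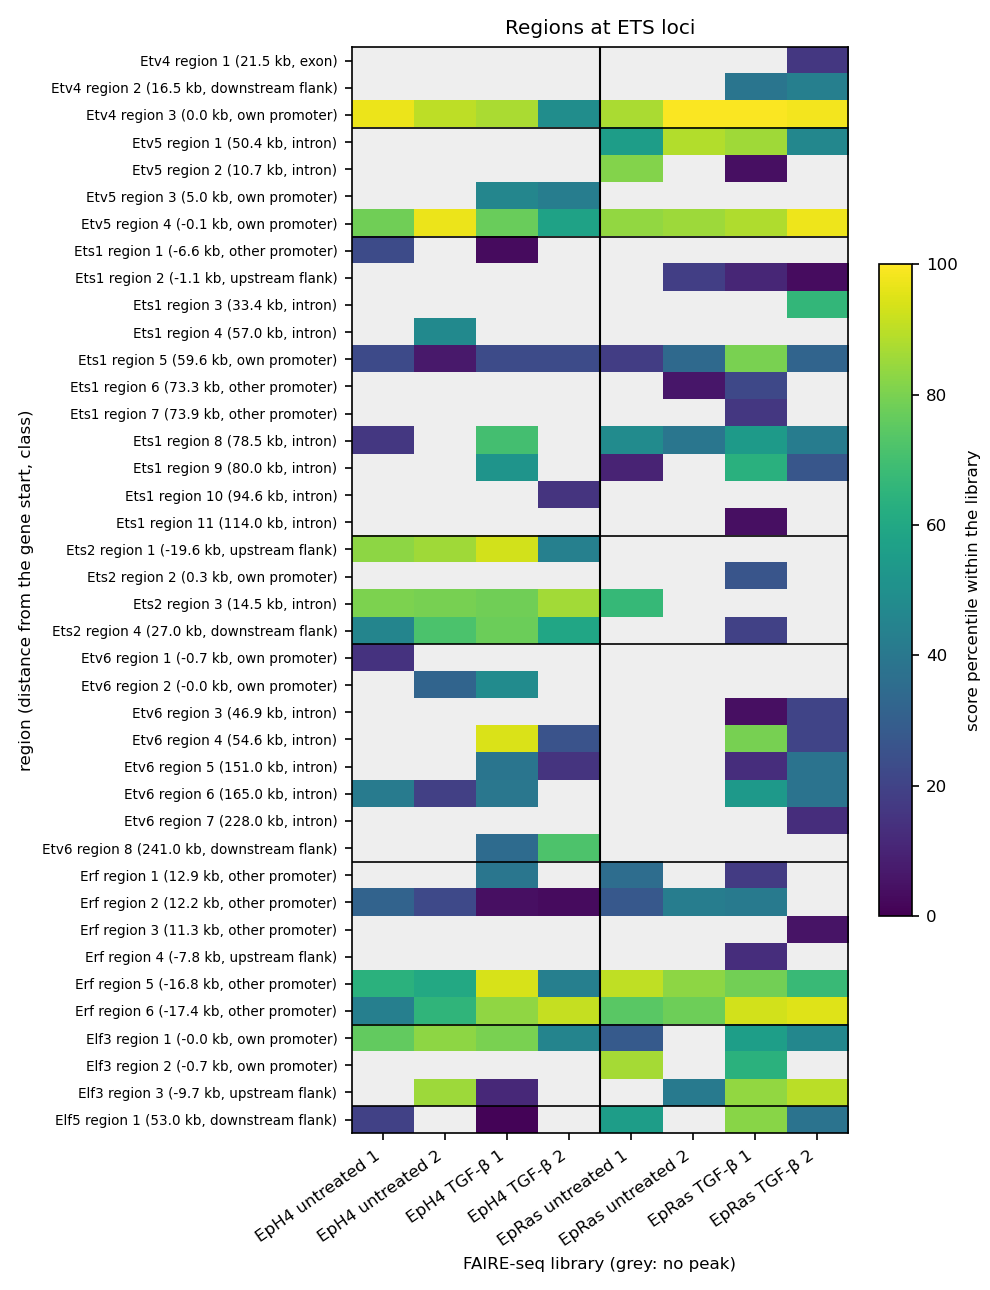
Score percentile of each of the 40 regions at ETS loci (rows, with distance from the gene start in kb and class) in each library (columns), with grey for no peak and black lines between genes and between lines. The promoters of *Etv4* and *Etv5* are filled across all 8 libraries, *Ets2* regions 1, 3 and 4 are filled on the EpH4 side, and *Etv6* regions 4 and 5 only in TGF-β columns.

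The PEA3 genes *Etv4* and *Etv5* had an accessible promoter in every library, and the regions at which lines or groups differed lay in an intron, near an internal start site and past the end of the gene. Positions are given in kb from the gene start in the direction of transcription, with negative values upstream. *Etv4* (chr11:101769742-101785371, reverse strand) had 1 peak in every EpH4 and untreated EpRas library and 2 and 3 peaks in TGF-β-treated EpRas cells. Its promoter region (chr11:101785153-101785575) stood at percentiles 96.9 and 90.1 in EpH4 cells without TGF-β, 87.3 and 49.2 in EpH4 cells with it, 87.2 and 99.3 in EpRas cells without TGF-β, and 99.3 and 98.4 in EpRas cells with it. The promoter was thus among the higher-scored peaks of 7 libraries and near the middle in TGF-β-treated EpH4 replicate 2, and the lines overlapped.

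*Etv4* region 2 (chr11:101768722-101769008, at 16.5 kb, just past the end of the gene) was called in TGF-β-treated EpRas cells at percentiles 38.7 and 43.0 and in none of the other 6 libraries. Calls of this kind were the most frequent of the 4 groups in the background given above. In lists of equal length it remained in replicate 2 alone, at 11.3. The other addition in these cells, a region inside a coding exon of the neighbouring gene *Dhx8*, an RNA helicase, was called only in TGF-β-treated EpRas replicate 2, at 16.1. The TGF-β effect on the *Etv4* peak count was 0 in EpH4 and 1.50 in EpRas cells. Their difference did not pass an exact permutation test of line labels within treatments (p = 0.333, smallest possible 0.0556).

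*Etv5* (chr16:22381309-22439719, reverse strand) had 1, 1, 2 and 2 peaks in the EpH4 libraries and 3, 2, 3 and 2 in the EpRas libraries, in the order untreated 1 and 2, then TGF-β 1 and 2. The mean was 2.50 ± 0.577 in EpRas and 1.50 ± 0.577 in EpH4 cells (SD, n = 4), a difference of 1.00 (exact permutation test, p = 0.171, adjusted p = 0.860). Its promoter region (chr16:22439573-22440113) was called in all 8 libraries, at 78.2 and 96.9 in EpH4 cells without TGF-β, 77.1 and 57.5 in EpH4 cells with it, 83.9 and 85.3 in EpRas cells without TGF-β, and 88.0 and 97.6 in EpRas cells with it. Both treated libraries lay below both untreated ones in EpH4 cells and above them in EpRas cells.

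*Etv5* region 1 (chr16:22389148-22389499, intron, at 50.4 kb) was the only ETS-locus region called in all EpRas and 0 EpH4 libraries. It was absent from all 4 EpH4 lists and stood at 55.7 and 88.5 in untreated EpRas cells and at 85.8 and 46.4 in TGF-β-treated EpRas cells. The mean difference was 69.1 percentile points (exact permutation test, p = 0.0286, adjusted over all regions p = 0.460). TGF-β-treated and untreated EpRas libraries overlapped. The region also separated the lines in lists of equal length, at 29.6, 85.4, 64.1 and 16.6 in the 4 EpRas libraries, and among the higher-scored peaks alone. Peaks in the 1 Mb on either side of the *Etv5* locus, the locus left out, had a mean of 18.0 in EpRas and 16.5 in EpH4 cells. Regions of the kind of region 1 made up 0.574% of the 1219 regions on chromosome 16.

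Other *Etv5* regions were called in fewer libraries. *Etv5* region 3 (chr16:22434586-22434858, at 5.00 kb and within 2 kb of an internal *Etv5* start site) was called at 46.0 and 42.4 in EpH4 cells with TGF-β and in none of the other libraries. *Etv5* region 2 (intron, at 10.7 kb) was called only in replicate 1 of both EpRas groups, at 81.6 without and 3.94 with TGF-β. EpRas and EpH4 cells thus each held intronic or internal *Etv5* regions that the other line lacked.

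**Figure D3:**
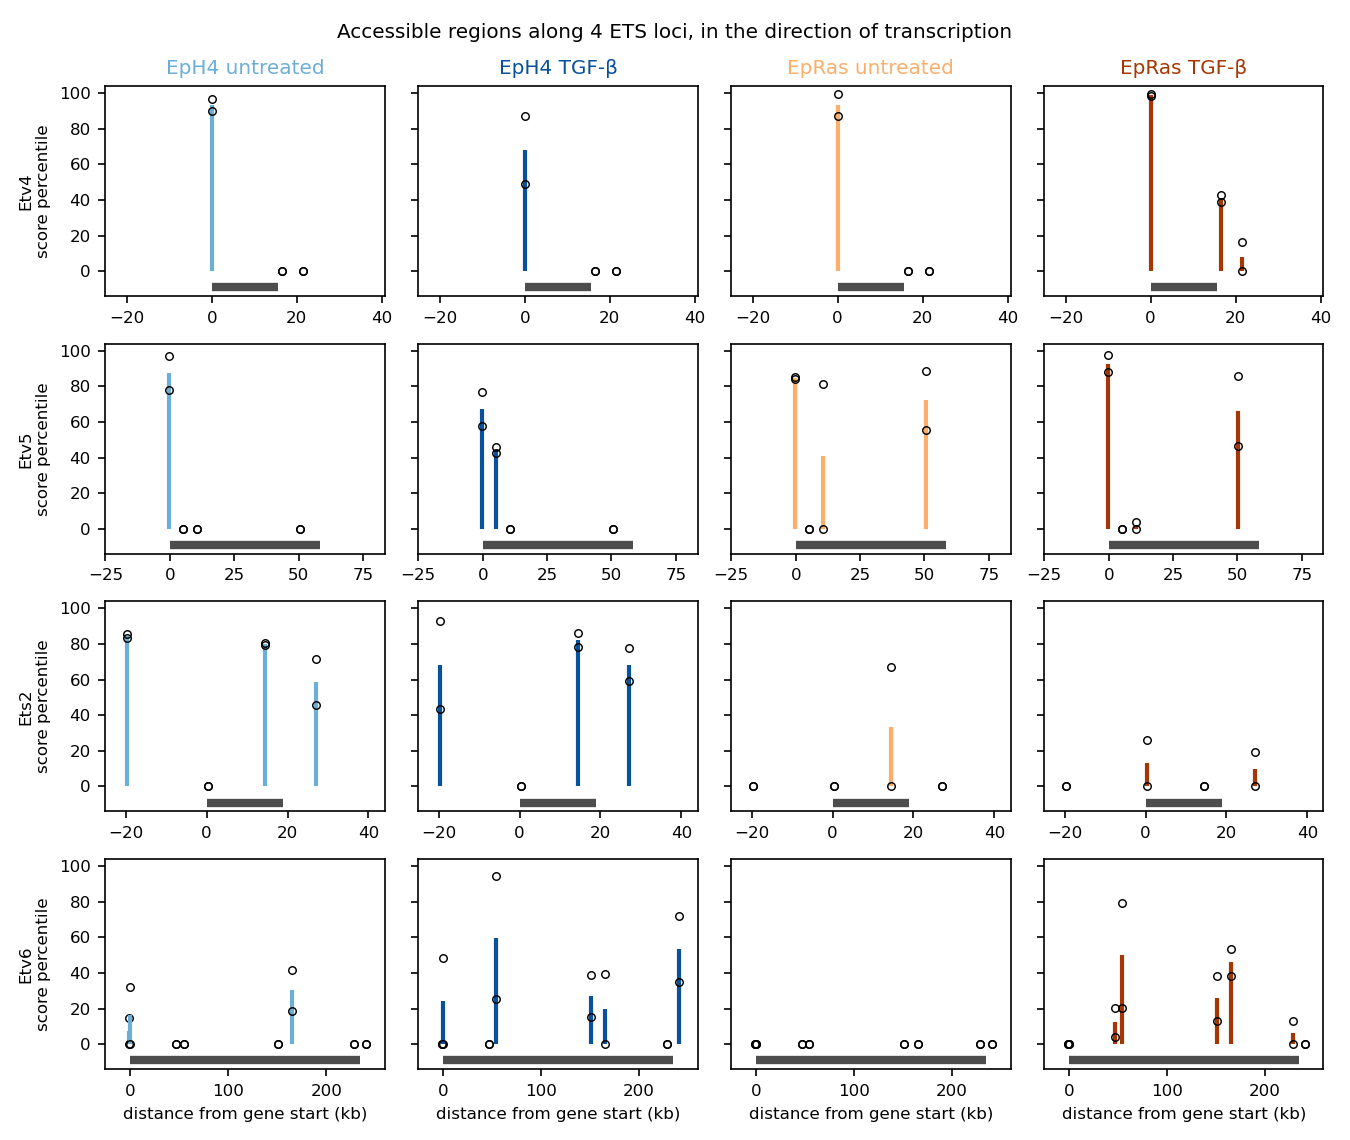
Mean score percentile (bars, n = 2) and the value of each library (circles, 0 for no peak) of the regions along 4 ETS loci (rows), by group (columns), against distance from the gene start in kb, with the gene span as a grey bar below 0. *Etv5* has a far intronic region in the EpRas panels alone, the *Ets2* regions stand high in the EpH4 panels, and the *Etv6* locus is empty in untreated EpRas cells.

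*Ets1* and *Ets2*, whose products are ERK-activated, differed in pattern. *Ets1* (chr9:32636221-32757820, forward strand) had 3, 2, 4 and 2 peaks in the EpH4 libraries and 3, 4, 7 and 5 in the EpRas libraries. The mean was 4.75 ± 1.71 in EpRas and 2.75 ± 0.957 in EpH4 cells (SD, n = 4), with overlap between the lines (exact permutation test, p = 0.143, adjusted p = 0.785). In lists of equal length the libraries had 3, 1, 2 and 2 peaks in EpH4 and 1, 2, 2 and 2 in EpRas cells, so the direction turned.

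With 11 regions *Ets1* had more than any other ETS locus, and 1 of them was called in all 8 libraries. This was *Ets1* region 5 (chr9:32695594-32696055, at 59.6 kb), 0.198 kb from an annotated *Ets1* start site and counted as an own promoter. Its percentiles were 22.5 and 6.91 in EpH4 cells without TGF-β, 22.9 and 22.9 in EpH4 cells with it, 18.2 and 34.2 in EpRas cells without TGF-β, and 79.7 and 32.3 in EpRas cells with it. It ranked low in 7 libraries, and the lines overlapped. In lists of equal length it was called in 4 of the 8 libraries, so that it was no longer among the promoters called throughout. For *Ets1* region 2, at -1.07 kb, the nearest start site in the annotation used was that of *Gm27163*, 6.02 kb away. The annotation thus held no *Ets1* start site at the first base of the span. The distance of region 5 from that base therefore does not set it apart from the promoters of *Etv4* and *Etv5*.

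The other *Ets1* regions varied between libraries. *Ets1* region 8 (intron, chr9:32714549-32714856, at 78.5 kb) was called in all 4 EpRas libraries at 39.3 to 54.4, and in replicate 1 of both EpH4 groups at 16.1 and 70.3. *Ets1* region 9 (intron, at 80.0 kb) was called in 3 EpRas libraries at 9.92 to 63.5 and in 1 EpH4 library at 51.8. *Ets1* region 2 (at -1.07 kb, before the first base of the annotated span) was called in 3 EpRas libraries, at 18.4 in untreated replicate 2 and at 10.6 and 3.46 with TGF-β, and in 0 EpH4 libraries. None of these separated the lines. Another 3 regions lay at start sites of the predicted genes *Gm27163* and *Gm27240* and were called in 1 or 2 libraries each. In all, 5 of the 11 regions were called in 1 library only.

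*Ets2* (chr16:95702075-95721051, forward strand) was the ETS locus whose peak counts were higher in every EpH4 library than in any EpRas library. It had 3 peaks in each of the 4 EpH4 libraries, 1 and 0 in EpRas cells without TGF-β, and 2 and 0 in EpRas cells with it. TGF-β-treated and untreated libraries overlapped. The means were 3.00 ± 0 and 0.750 ± 0.957 (SD, n = 4), a difference of EpRas minus EpH4 of -2.25 (exact permutation test, p = 0.0286, adjusted p = 0.593). The difference was also without overlap in lists of equal length, with 3 peaks in each EpH4 library and 1, 0, 0 and 0 in the EpRas libraries. Cutting removes most peaks from the longest lists, which were mostly from EpRas cells, so this check favours results higher in EpH4 cells. Over all regions, the share called in all EpH4 and 0 EpRas libraries rose from 0.752% to 1.55% with the cut.

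The same 3 regions carried these calls in EpH4 cells, and they lay before, in and after the gene. *Ets2* region 1 (chr16:95682258-95682737, at -19.6 kb, just inside the 20 kb limit) stood at 83.2 and 85.7 in untreated and 93.1 and 43.7 in TGF-β-treated EpH4 cells, with no peak in any EpRas library. *Ets2* region 3 (chr16:95716398-95716746, intron, at 14.5 kb) stood at 80.4, 79.3, 78.4 and 86.1 in the EpH4 libraries and at 67.1 in untreated EpRas replicate 1, with no peak in the other 3. *Ets2* region 4 (chr16:95728891-95729239, downstream, at 27.0 kb) stood at 45.7, 71.5, 77.6 and 59.2 in the EpH4 libraries and at 19.5 in TGF-β-treated EpRas replicate 1, with no peak in the other 3.

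At each of these regions every EpH4 library ranked above every EpRas library. The differences of EpRas minus EpH4 were -76.4, -64.3 and -58.6 percentile points for regions 1, 3 and 4 (exact permutation test, p = 0.0286 each, adjusted p = 0.460 each). Region 1 separated the lines by calls, and in equal lists region 4 did so too, since the cut removed its only EpRas call. Without untreated EpRas replicate 1, region 3 did so as well, which follows from leaving out the only EpRas library with a call there. The same omission made *Ets1* region 2 separate the lines in the other direction, called in EpRas cells. Among the higher-scored peaks alone, region 1 was missing from TGF-β-treated EpH4 replicate 2 and region 4 from 2 EpH4 libraries. *Ets2* region 2 (promoter, at 0.332 kb) was called only in TGF-β-treated EpRas replicate 1, at 26.3. The *Ets2* promoter was thus without a peak in all EpH4 libraries, in which the 3 other regions were called.

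Peaks in the 1 Mb on either side of the *Ets2* locus, the locus itself left out, numbered 9, 5, 11 and 5 in the EpH4 libraries and 5, 8, 16 and 10 in the EpRas libraries. The surroundings had a mean of 7.50 peaks in EpH4 and 9.75 in EpRas cells, the opposite direction to the locus. Chromosome 16 as a whole took 3.70% to 4.09% of the EpH4 lists and 2.80% to 2.98% of the EpRas lists, and the part of this in the result was not tested. On this chromosome 1.07% of regions were called in all EpH4 and 0 EpRas libraries. *Etv5* region 1, on the same chromosome, had the reverse pattern.

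**Figure D4:**
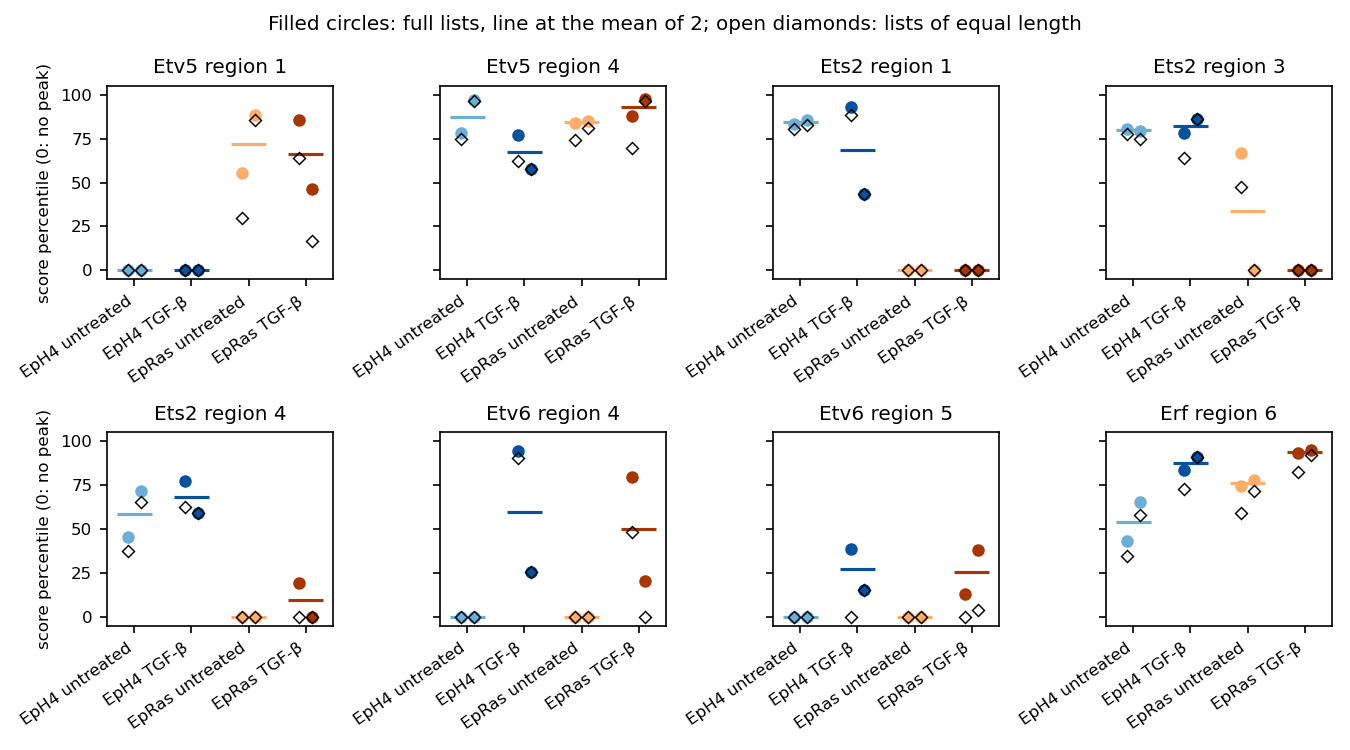
Score percentile by group for 8 regions, with 0 for no peak. Filled circles are the 2 libraries of a group in the full lists, lines their means, and open diamonds the same libraries in lists of equal length. *Etv5* region 1 and *Ets2* region 1 keep 0 in 1 line in both kinds of list, while *Etv6* regions 4 and 5 lose treated libraries in equal lists.

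Among the repressors, *Etv6* had more peaks with TGF-β in both lines. *Etv6* (chr6:134035700-134270158, forward strand), known from leukaemia translocations, had 2 and 2 peaks in EpH4 cells without TGF-β, 5 and 3 in EpH4 cells with it, 0 and 0 in EpRas cells without TGF-β, and 4 and 5 in EpRas cells with it. All treated libraries exceeded all untreated ones, and untreated EpRas cells were the only group with no peak. The means were 4.25 ± 0.957 with and 1.00 ± 1.15 without TGF-β (SD, n = 4), a difference of 3.25 (exact permutation test, p = 0.0286, adjusted p = 1.00). The increase was 2.00 peaks in EpH4 and 4.50 in EpRas cells, and the difference of 2.50 between the lines did not pass the exact permutation test (p = 0.167).

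The *Etv6* result changed with list length. When each list was cut to the same length, EpH4 cells had 2 and 2 peaks without and 2 and 3 with TGF-β, and EpRas cells had 0 and 0 without and 1 and 2 with it. Thus the groups overlapped over both lines, with a difference of 1.00 (exact permutation test, p = 0.314). Per 10000 peaks of the list the difference was 1.72 (exact permutation test, p = 0.0857). Within EpRas cells the treated libraries still had peaks where the untreated had none, a comparison of 2 against 2 libraries that allows no p-value under 0.333 in an exact permutation test.

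Both regions that separated the treatments lay in introns of *Etv6*. *Etv6* region 4 (chr6:134090075-134090501, at 54.6 kb) stood, with TGF-β, at 94.2 and 25.6 in EpH4 cells and at 79.4 and 20.5 in EpRas cells, with no peak in untreated cells. *Etv6* region 5 (chr6:134186315-134186648, at 151 kb) stood, with TGF-β, at 38.8 and 15.2 in EpH4 cells and at 13.1 and 38.2 in EpRas cells, with no peak in untreated cells. Region 4 ranked higher in replicate 1 than in replicate 2 of each line.

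The differences with TGF-β were 54.9 percentile points for region 4 and 26.3 for region 5 (exact permutation test, p = 0.0286 each, adjusted p = 1.00 each). In equal lists neither region separated the treatments. Region 4 then stood, with TGF-β, at 90.4 and 25.6 in EpH4 cells and at 48.1 and 0 in EpRas cells, and region 5 remained in 1 treated library of each line. Of the 1950 regions on chromosome 6, 0.718% were called in all treated and 0 untreated libraries.

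The other 6 *Etv6* regions differed by group and library. *Etv6* region 8 (downstream, chr6:134276910-134277242, at 241 kb) was called in TGF-β-treated EpH4 cells alone, at 35.1 and 71.9. *Etv6* region 3 (intron, at 46.9 kb) was called in TGF-β-treated EpRas cells alone, at 3.94 and 20.5. *Etv6* region 6 (intron, at 165 kb) was called in 5 libraries, at 41.6, 18.9 and 39.6 in EpH4 cells and at 53.7 and 38.2 in TGF-β-treated EpRas cells. *Etv6* region 7 (intron, at 228 kb) was called in TGF-β-treated EpRas replicate 2 alone, at 12.9.

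The *Etv6* promoter, in contrast, was called in few libraries and in 0 of the EpRas ones. *Etv6* region 2 (at -0.0320 kb) was called in untreated EpH4 replicate 2 and TGF-β-treated EpH4 replicate 1, at 32.2 and 48.2, and *Etv6* region 1 (at -0.722 kb) in untreated EpH4 replicate 1, at 14.6. Peaks in the 1 Mb around the *Etv6* locus numbered 14 to 22 in untreated and 15 to 33 in TGF-β-treated libraries. Chromosome 6 as a whole took 6.17% to 6.80% of the EpH4 lists and 4.00% to 4.46% of the EpRas lists. The part of this in the *Etv6* calls was not tested.

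*Erf* (chr7:25242561-25250761, reverse strand), a repressor that leaves the nucleus when ERK phosphorylates it, had no peak at its own promoter. The locus had 3 to 5 peaks in every library, with 3, 3, 4 and 3 in EpH4 and 4, 3, 5 and 3 in EpRas cells, so lines and treatments overlapped. Promoters of neighbouring genes accounted for 5 of its 6 regions, of which 2 were called in all 8 libraries. These were the regions at the start of *Cic*, which encodes Capicua, a repressor of PEA3 genes that Ras signalling inactivates.

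At the *Cic* start, *Erf* region 5 (chr7:25267333-25267712) stood at 63.7 and 60.3 in EpH4 cells without TGF-β, 94.0 and 43.0 in EpH4 cells with it, 90.3 and 83.0 in EpRas cells without TGF-β, and 78.6 and 67.6 in EpRas cells with it. *Erf* region 6 (chr7:25267840-25268463) stood at 43.3 and 65.3 in EpH4 cells without TGF-β, 83.5 and 91.2 in EpH4 cells with it, 74.4 and 77.8 in EpRas cells without TGF-β, and 93.1 and 95.1 in EpRas cells with it. At region 6 all treated libraries ranked above all untreated ones, while at region 5 they overlapped.

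The difference with TGF-β at region 6 was 25.5 percentile points (exact permutation test, p = 0.0286, adjusted p = 1.00). Equal lists kept treated above untreated libraries, with the lowest treated value at 72.7 and the highest untreated one at 71.8. Of the 3 regions near *Gsk3a*, which encodes a kinase of glycogen metabolism and Wnt signalling, *Erf* region 2 (chr7:25238372-25238683) was called in 7 libraries at 2.97 to 42.3, and *Erf* region 1 in 3 libraries at 17.4 to 39.1.

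The epithelial factors had few called regions. At their own promoters 3 of these 4 genes had no peak, where 42.5% of all protein-coding genes had one in at least 1 library. *Elf3* (chr1:135253575-135258568, reverse strand), induced in inflamed and differentiating epithelium, was the exception. Its promoter region nearest to the start site (*Elf3* region 1, chr1:135258412-135258757) stood at 75.9 and 82.9 in EpH4 cells without TGF-β, 79.7 and 45.0 in EpH4 cells with it, 28.2 and 0 in EpRas cells without TGF-β, and 56.2 and 46.4 in EpRas cells with it. Percentiles at region 1 were mostly lower in EpRas cells, and the lines overlapped, with a difference of EpRas minus EpH4 of -38.2 (exact permutation test, p = 0.0857). In lists of equal length the lines did not overlap, with 72.2, 79.3, 66.4 and 45.0 in the EpH4 libraries and 0, 0, 0 and 16.6 in the EpRas libraries, a difference of -61.6 (exact permutation test, unadjusted p = 0.0286). As at *Ets2*, the cut favours results higher in EpH4 cells. Among the higher-scored peaks alone the lines overlapped, with a difference of -32.2 (exact permutation test, p = 0.143). A replicate block in the full lists gave an exact permutation p of 0.111.

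The other *Elf3* regions were called in some libraries of both or of 1 line. *Elf3* region 2 (at -0.701 kb, also an own promoter region) was called in replicate 1 of both EpRas groups, at 86.4 without and 63.8 with TGF-β. It was called in 0 EpH4 libraries, the opposite direction to region 1. *Elf3* region 3 (chr1:135268085-135268405, at -9.68 kb, inside the peptidase gene *Rnpep*) was called at 85.2 and 11.5 in 2 EpH4 libraries and at 40.9, 83.6 and 89.6 in 3 EpRas libraries. Neither separated the lines or the treatments.

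*Elf5* (chr2:103411688-103450989, forward strand) had 1 region, which lay downstream inside the catalase gene *Cat* (chr2:103464470-103464893, at 53.0 kb). It stood at 19.5 and 0.962 in replicate 1 of the EpH4 groups and at 55.7, 82.1 and 38.2 in 3 EpRas libraries. *Ehf* (chr2:103263433-103303278, reverse strand) and *Spdef* (chr17:27714352-27728955, reverse strand), the latter a factor of goblet and luminal cells, had 0 peaks within 20 kb in all 8 libraries, and the nearest regions lay 161 kb and 36.1 kb from their spans.

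The 20 kb limit left regions close outside it, and the values of a few of them are given as a description. The one nearest to *Spdef*, at 36.1 kb upstream, was called in TGF-β-treated EpRas cells alone at 93.2 and 69.0. Calls of this kind made up 4.21% of all regions. A region 34.0 kb downstream of *Elf5*, at the promoter of *Cat*, was called in all EpRas libraries, at 75.1, 59.6, 80.7 and 75.6, and in 0 EpH4 libraries. Chromosome 2, which holds it, took 7.62% to 7.94% of the EpRas lists and 5.55% to 6.20% of the EpH4 lists. Calls in all EpRas and 0 EpH4 libraries made up 1.98% of all regions. Upstream of *Ets2*, outside the limit at 27.1 kb, a region was called in 3 EpH4 libraries at 3.50 to 31.0 and in 2 EpRas libraries at 7.74 and 20.5. Just inside the limit, *Ets2* region 1 is the counterpart given above.

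The other 16 genes of the family were *Elf1*, *Elf2*, *Elf4*, *Elk1*, *Elk3*, *Elk4*, *Erg*, *Etv1*, *Etv2*, *Etv3*, *Fev*, *Fli1*, *Gabpa*, *Spi1*, *Spib* and *Spic*. Between the lines 1 of 16 was without overlap and higher in EpRas cells and 0 were higher in EpH4 cells, and by treatment 0 of 16 were without overlap. The one was *Etv1*, the remaining PEA3 gene. It had 0 peaks in all EpH4 libraries and 2, 3, 3 and 2 in the EpRas libraries, a difference of 2.50 (exact permutation test, p = 0.0286, adjusted p = 0.593). Chromosome 12, which holds *Etv1*, took 1.34% to 2.05% of the EpH4 lists and 3.11% to 3.50% of the EpRas lists, and 3.68% of its regions were called in all EpRas and 0 EpH4 libraries. The part of this in the *Etv1* count was not tested. *Erg*, *Fli1* and *Spic* had 0 peaks in all libraries.

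The letters searched for AP1 were found in 18 of the 40 ETS-locus windows of 300 bases (45.0%, Wilson 95% interval 30.7 to 60.2), against 34.7% of all regions. Outside promoters they were found in 15 of 23 (65.2%, interval 44.9 to 81.2), against 44.2%. The share was 60.9% (interval 40.8 to 77.8) against 41.2% in windows of 200 bases. In windows of 500 bases it was 65.2% (interval 44.9 to 81.2) against 46.7%. These intervals take regions as independent, although several came from 1 locus, mainly *Ets1*, and some were called in 1 library. The ETS letters were found in 4 of 40 (10.0%, interval 3.96 to 23.1), against 12.3% of all regions, namely at the promoter of *Etv4*, past the end of *Etv4*, near *Gsk3a* and at the start of *Cic*. The RUNX letters were found in 3 of 40 (7.50%, interval 2.58 to 19.9), against 11.5%, in *Etv6* regions 4 and 8 and *Elf3* region 3. In windows of 500 bases they were found in 7 of 40 (17.5%), against 15.1%, so the direction against all regions turned. AP1 matches were present in at least 1 region at each of the 8 loci that had a region, ETS matches at 2 loci and RUNX matches at 2 loci. Such a count rises with the number of regions per locus, from 1 at *Elf5* to 11 at *Ets1*. No share over other loci was computed, and the AP1 match at the *Elf5* locus lay inside *Cat*.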

How the data were processed

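FAIRE-seq of EpH4 and EpRas cells had been run in 2 biological replicates per group. Per the study's methods the authors trimmed reads to a fixed short length, used Bowtie2 to align them to mm10, and called peaks under a set q-value threshold with MACS2 2.0.9 (version from the submitters' processing notes). The deposited lists, 1 per library without pooling, give each peak a score of unstated meaning, used here only as a rank within its list. Ties shared their mean rank. Groups and replicate numbers came from the sample labels.

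Gene spans and start sites were those of GENCODE M21 (basic set) and the sequence was GRCm38.p6, to which mm10 belongs. Peaks overlapping by at least 1 bp were merged into 37230 regions, a region taking the highest percentile of its peaks in each library and 0 without one. A promoter region had its midpoint within 2 kb of a start site. Counts per locus and percentiles per region were compared by exact permutation tests in Python 3.11.15 (NumPy 2.4.6, SciPy 1.17.1, pysam 0.24.0), adjusted over 15756 loci or 37230 regions, and tested on simulated data first. Within a line, 2 against 2 libraries were not tested.

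The 10 genes, the other family genes, the motifs and the tests were chosen with earlier results of these data known. The rule named all 10 members, family genes whose groups did not overlap, and at each locus the regions that separated groups, that were particular to 1 group, that were called throughout or that had the highest mean percentile. *Etv6* regions 1, 2, 6 and 7, *Ets1* regions 2 and 9, *Ets2* regions 2 and 4, *Etv4* region 1, *Etv5* region 2, *Erf* regions 1 and 2 and *Elf3* regions 2 and 3 were described beyond this rule, after their values were seen. The regions outside the 20 kb limit were also beyond the rule. Alternatives were lists of equal length, counts per 10000 peaks, scores at or above the median of all lists, flanks of 10 and 50 kb, peak midpoints, stricter overlap, other promoter distances and motif windows, each library left out, and a replicate block. Percentiles recomputed in shortened lists, calls in all 8 libraries under other lists and the RUNX windows of other widths were chosen after seeing the data.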

Additional observations from a re-analysis of the deposited data

Results flagged for a closer look

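The *Etv5* promoter (*Etv5* region 4) was picked out because the 2 lines moved in opposite directions with TGF-β in every library. Both treated EpH4 libraries ranked below both untreated ones, with a mean change of -20.3 percentile points, and both treated EpRas libraries ranked above the untreated ones, with a mean change of 8.20. The difference of the changes was 28.5 percentile points, and an exact permutation test of line labels within treatments gave p = 0.167, where 0.0556 is the smallest possible. Opposite directions of this kind were found at 1.65% of all 37230 regions. In lists of equal length, TGF-β-treated and untreated EpRas libraries overlapped at this promoter (74.3 and 81.2 without and 69.6 and 96.2 with TGF-β).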

How the results depend on the processing

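With lists of equal length or with higher-scored peaks alone, 0 regions at ETS loci separated the treatments in place of 2, and 0 loci were without overlap by treatment in place of 1. Counts per 10000 peaks also gave 0 such loci. Higher-scored peaks alone left 1 region that separated the lines in place of 2, *Etv5* region 1. They also made *Etv5* (difference 1.50) and not *Ets2* (-2.00) the locus without overlap between the lines. Flanks of 10 kb or 50 kb left 0 loci without overlap between the lines in place of 1 (*Ets2*, with differences of -1.25 and -3.00). Leaving out each library gave 2 to 4 regions that separated the lines, 4 without untreated EpRas replicate 1, while the 2 regions that separated the treatments and the 1 locus in each contrast stayed at these counts. The direction of a locus difference turned between the lines for *Ets1* (-0.250) and *Erf* (-0.500) in equal lists and for *Erf* (-0.398) and *Elf3* (-0.0492) per 10000 peaks. For TGF-β it turned for *Ets2* (-0.250) and *Erf* (-0.500) in equal lists, for *Ets2* (-0.0256) and *Erf* (-0.146) per 10000 peaks, for *Etv5* (-0.500) and *Ets2* (-0.500) among higher-scored peaks, and for *Ets2* when single libraries were left out (-0.0833 to -0.333 without one of 3 libraries, within a range of -0.333 to 0.917 over the 8). The cause was not tested. None of these differences had passed the exact permutation test. Calls in all 8 libraries fell from 5 regions to 4 in equal lists and to 0 among higher-scored peaks. Promoter shares (32.5% to 41.4%), AP1 shares (40.0% to 45.0%), ETS shares (5.00% to 12.5%) and RUNX shares (7.50% to 17.5%) stayed within their intervals.

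With a replicate block, the difference at *Ets2* between the lines (-2.25) and at *Etv6* between treatments (3.25) had an exact permutation p of 0.0556, the smallest it allows. Deviations of replicate 1 from its group mean, taken over all regions, correlated between groups at -0.00356 to 0.0314. Such a correlation does not detect a shift of a whole list, so it cannot show whether replicate numbers pair the libraries. Replicate 1 had the longer list in TGF-β-treated EpH4 cells (17927 against 10821). The same held in untreated (17210 against 13784) and TGF-β-treated EpRas cells (27337 against 16833). In untreated EpH4 cells replicate 1 had the shorter list (12462 against 13092). Depth limits every absence of a peak.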
